A study of Rattus norvegicus with 6 samples.

Results

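The genes described here encode the subunits of the WAVE regulatory complex, the assembly that starts branched actin filaments at the cell membrane. Of 9 listed genes, 7 were measured by 1 probe set each: Cyfip1, Cyfip2, Nckap1, Wasf1, Wasf2, Abi1 and Abi2, among 14506 named genes on the array. Wasf3 and Brk1 had no probe set listed under their symbol alone in the array annotation and are not analysed here. The list was chosen by the adult against day 20 log2 difference of Cyfip2 in these arrays, which was large, with the other subunits added by name. The adult against day 20 values of the 7 genes are therefore a description: no p-value of a member is printed, and counts of members past a threshold stand only beside the share of all genes.

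The arrays held total RNA of pancreatic cells from male Wistar rats, sorted to enrich beta cells, with no genetic change or treatment named in the labels. The immature group was 3 preparations from suckling rats at postnatal day 20, and the mature group 3 from young adults of about 2 months weighing 250 to 280 g. Cells were enriched by light scatter and autofluorescence, and the design text calls them primary cultured without giving a time. Each age had 3 biological replicates by its labels, which leave out the number of animals behind a preparation. The design compares immature with mature beta cells to find what changes as they mature.

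In the WAVE complex a Cyfip subunit and Nckap1 (Nap1) form a large scaffold, and a WAVE protein (the Wasf genes), an Abi subunit and Brk1 form a rod that lies along it. The Cyfip subunit binds the active form of the GTPase Rac1, which releases the end of the WAVE protein that switches on the Arp2/3 complex, the nucleator of branched actin. In beta cells a web of actin lies under the plasma membrane and is remodelled when glucose stimulates insulin release, with Rac1 taking part. Cyfip1 and Cyfip2 can replace each other in the complex, and Cyfip proteins also bind FMRP, the RNA-binding protein lost in fragile X syndrome.

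Values are log2 signals after RMA, on which a difference of 1 is a 2-fold difference in signal. Array medians were 6.35 to 6.39, with first quartiles of 4.91 to 4.94. There were no detection calls to tell signal from background, so levels around the first quartile may be background. A probe set has its own brightness, so levels are compared between arrays for 1 gene and never between genes. The precision is limited by the 3 arrays per age, and errors are the SD over them unless an SE is named.

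Markers were used to check the preparations. All 7 measured beta cell markers had signals well above the first quartile, with a mean log2 signal per array of 11.74 to 12.21 in adult and 10.56 to 11.18 at day 20. A mean was also taken of 12 genes shared by endocrine cells, most of them of hormone granules (the pan-endocrine mean). It was 11.24, 10.55 and 10.73 in adult replicates 1 to 3, and 9.95, 9.39 and 10.40 at day 20. RNA of other cells was present too: acinar cell markers had means of 13.71 to 13.97 over the 6 arrays. Most acinar markers lay near the largest value of the arrays, 14.7, so like means do not show like amounts of acinar RNA. Ins1 and Ins2 lay near it too, at 14.31 and 14.30 in adult and 14.00 and 14.10 at day 20. Markers of alpha, delta and PP cells had means of 8.88 to 9.26 in adult and 10.04 to 10.39 at day 20. Among them Gcg was bright, at 13.35 in adult and 14.08 at day 20. Past the threshold defined below, 5 of 7 beta cell markers and 9 of 12 pan-endocrine genes were higher in adult. The beta cell markers that did not pass were Ins1 and Ins2. The 12 pan-endocrine genes were first defined on these arrays, so their count is a description and no independent check. Over all genes 11.8% were higher and 10.9% lower past the threshold. Lower past it were 4 of 6 markers of alpha, delta and PP cells, all 9 endothelial markers and all 7 markers of dividing cells. So were 4 of 10 fibroblast and stellate cell markers and 2 of 5 duct markers. Of 9 leukocyte markers 1, Cd68, was lower in adult, and 3 (Ptprc, Itgam and Cd3e) lay below the first quartile, with the other 6 above it. In such bulk samples fewer cells of a type and less RNA per cell cannot be told apart.

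Cyfip2 was the member with the largest difference between the ages, and the groups of its paralog Cyfip1 overlapped. The bases before the start of each gene are shown for this pair, and for Nckap1 and Abi2, the members with the next largest differences. They are the 250 bases upstream of the start in RefSeq's promoter table (build GRCr8), 5′ to 3′ on the strand of the gene, with each GC box (GGGCGG, or CCGCCC where it lies on the other strand) in capitals. Cyfip2 is at chr10:31242441-31242690 on the minus strand, Cyfip1 at chr1:115846570-115846819 on the plus strand, Nckap1 at chr3:85898575-85898824 on the minus strand and Abi2 at chr9:69320955-69321204 on the plus strand.
Cyfip2: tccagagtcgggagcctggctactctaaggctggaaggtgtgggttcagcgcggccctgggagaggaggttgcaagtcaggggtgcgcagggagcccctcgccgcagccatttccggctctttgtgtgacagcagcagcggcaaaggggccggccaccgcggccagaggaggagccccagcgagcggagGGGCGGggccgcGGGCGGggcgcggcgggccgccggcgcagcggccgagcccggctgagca
Cyfip1: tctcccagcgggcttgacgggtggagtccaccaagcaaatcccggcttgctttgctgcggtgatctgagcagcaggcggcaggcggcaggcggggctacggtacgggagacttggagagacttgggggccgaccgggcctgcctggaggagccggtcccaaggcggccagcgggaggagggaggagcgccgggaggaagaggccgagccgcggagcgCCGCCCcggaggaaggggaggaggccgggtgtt
Nckap1: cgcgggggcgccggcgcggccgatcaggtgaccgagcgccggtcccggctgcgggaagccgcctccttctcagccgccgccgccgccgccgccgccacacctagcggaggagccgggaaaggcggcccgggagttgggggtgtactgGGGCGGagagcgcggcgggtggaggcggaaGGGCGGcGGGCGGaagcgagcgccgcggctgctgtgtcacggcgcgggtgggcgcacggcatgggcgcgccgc
Abi2: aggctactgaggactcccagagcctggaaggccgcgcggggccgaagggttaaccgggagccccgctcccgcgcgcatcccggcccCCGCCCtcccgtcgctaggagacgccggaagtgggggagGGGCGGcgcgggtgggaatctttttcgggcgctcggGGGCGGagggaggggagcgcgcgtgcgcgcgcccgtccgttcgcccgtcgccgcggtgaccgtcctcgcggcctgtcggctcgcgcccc

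The windows of both Cyfip genes were rich in G and C, at 74.0% for Cyfip2 and 71.6% for Cyfip1, against a median of 51.2% over 33469 windows of this length. The sequence of Cyfip2 held 2 GC boxes and that of Cyfip1 held 1, and those of Nckap1 and Abi2 held 3 each. At least 1 GC box was found in 30.5% of all windows, at least 2 in 14.8% and at least 3 in 7.41%. None of these 4 windows held CCAAT (in 34.0% of all windows) or TATAAA (12.9%), searched on both strands. No match of 1 of these motifs overlapped another motif in them. Of the other members, Wasf2 had the lowest GC content, 49.6%, with no GC box and 4 matches of CCAAT, and Abi1 held 2 GC boxes at 56.8% GC. Such matches describe the sequence and do not show that a factor binds there.

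**Figure D1:**
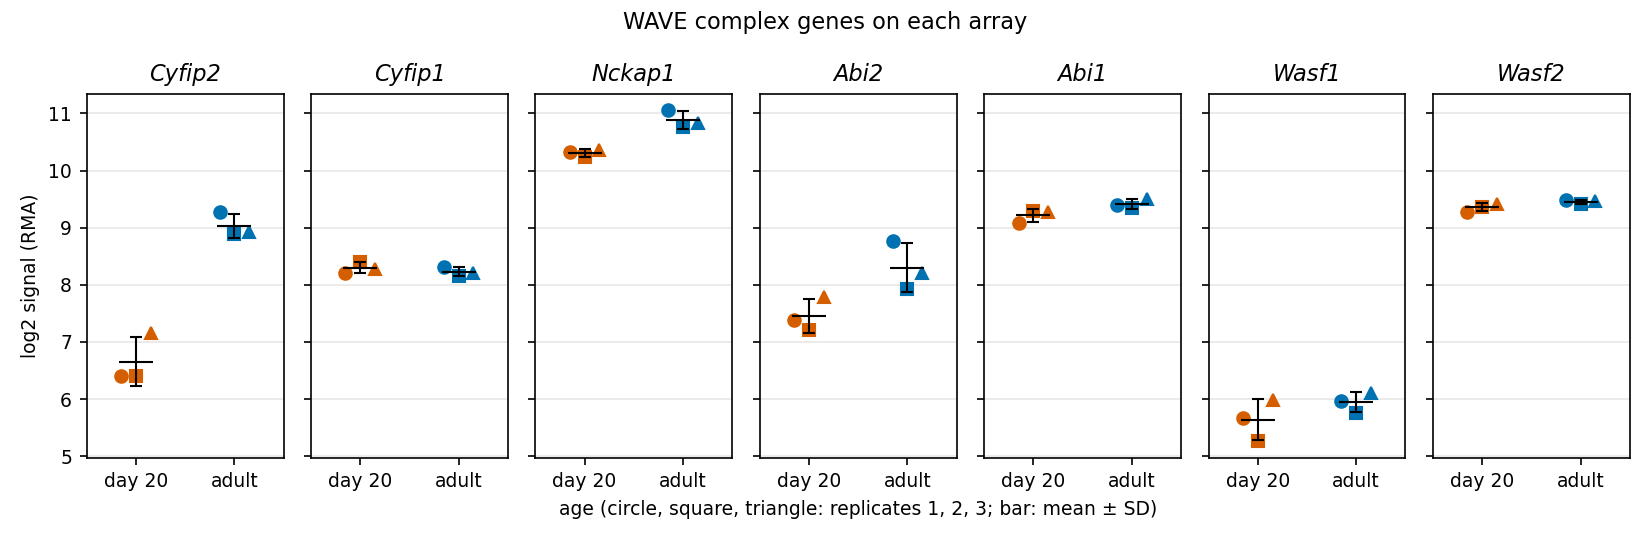
Log2 signal (vertical axis) of the 7 measured WAVE complex genes on each array at day 20 (orange) and in adult (blue), with the mean ± SD of 3 arrays as a bar and replicate numbers as symbols; heights are not comparable between genes. Cyfip2 lies between 8.89 and 9.28 on the adult arrays and between 6.40 and 7.16 at day 20, while the 2 groups of Cyfip1 overlap.

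The Rac-binding subunits came first. Cyfip2 (probe set 10742254) had log2 signals of 9.28, 8.89 and 8.93 on the 3 adult arrays and of 6.40, 6.41 and 7.16 on the 3 day 20 arrays. All adult arrays lay above all day 20 arrays, and day 20 replicate 3 stood above the others of its age. The means were 9.03 ± 0.22 and 6.66 ± 0.44 (SD, n = 3), a difference of 2.38 ± 0.20 (log2, SE of the limma fit) or 5.20-fold. This was the fifth largest rise of the 14506 genes (rank 5). With each array left out in turn the difference of Cyfip2 ranged from 2.25 to 2.63.

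Cyfip1 (probe set 10707418), the more widely expressed paralog, had signals of 8.32, 8.16 and 8.21 in adult and of 8.21, 8.40 and 8.28 at day 20. The groups overlapped, and the means of 8.23 ± 0.08 and 8.30 ± 0.09 (n = 3) differed by -0.07 ± 0.09 (log2, SE). The difference of Cyfip2 between the ages was thus larger than that of Cyfip1 by 2.45 on the log2 scale. The 2 ages had unlike balances of the 2 signals, which says nothing of how much of either protein sits in the complex.

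Nckap1 (probe set 10846710), the scaffold partner of the Cyfip subunit, had signals of 11.06, 10.76 and 10.84 in adult and of 10.32, 10.23 and 10.36 at day 20. The groups did not overlap, and the day 20 arrays lay close together. The means of 10.89 ± 0.16 and 10.31 ± 0.07 (n = 3) differed by 0.58 ± 0.10 (log2, SE), or 1.5-fold. Leaving out 1 array gave differences of Nckap1 from 0.49 to 0.64. Its relative Nckap1l (Hem1), which takes its place in blood cells, had signals below the first quartile on all 6 arrays, with means of 4.19 ± 0.12 in adult and 4.18 ± 0.11 at day 20.

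The Abi subunits, adaptors that join the WAVE protein to the scaffold and are bound by Abl kinases, had unequal differences. Abi2 (probe set 10923782) had signals of 8.76, 7.92 and 8.21 in adult and of 7.38, 7.21 and 7.78 at day 20. The groups did not overlap, but the gap between adult replicate 2 and day 20 replicate 3 was small against the spread within an age. The means of 8.30 ± 0.42 and 7.46 ± 0.29 (n = 3) differed by 0.84 ± 0.21 (log2, SE), or 1.79-fold, and by 0.61 to 1.03 with 1 array left out.

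Abi1 (probe set 10799989) had signals of 9.39, 9.35 and 9.51 in adult and of 9.09, 9.30 and 9.27 at day 20. The groups lay side by side without overlap, and the difference was 0.20 ± 0.09 (log2, SE), smaller than that of Abi2 by 0.64.

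The WAVE proteins, which carry the part that activates Arp2/3, had overlapping groups. Wasf2 (probe set 10880331), the widely expressed WAVE2, had signals of 9.49, 9.41 and 9.46 in adult and of 9.28, 9.37 and 9.42 at day 20. The groups overlapped, with a difference of 0.10 ± 0.08 (log2, SE). Wasf1 (probe set 10833952), known as the WAVE protein of neurons, had signals below the array medians, of 5.97, 5.76 and 6.11 in adult and of 5.67, 5.26 and 5.98 at day 20. Its groups overlapped too, with a difference of 0.31 ± 0.17 (SE), and leaving out 1 array moved it between 0.12 and 0.48.

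**Figure D2:**
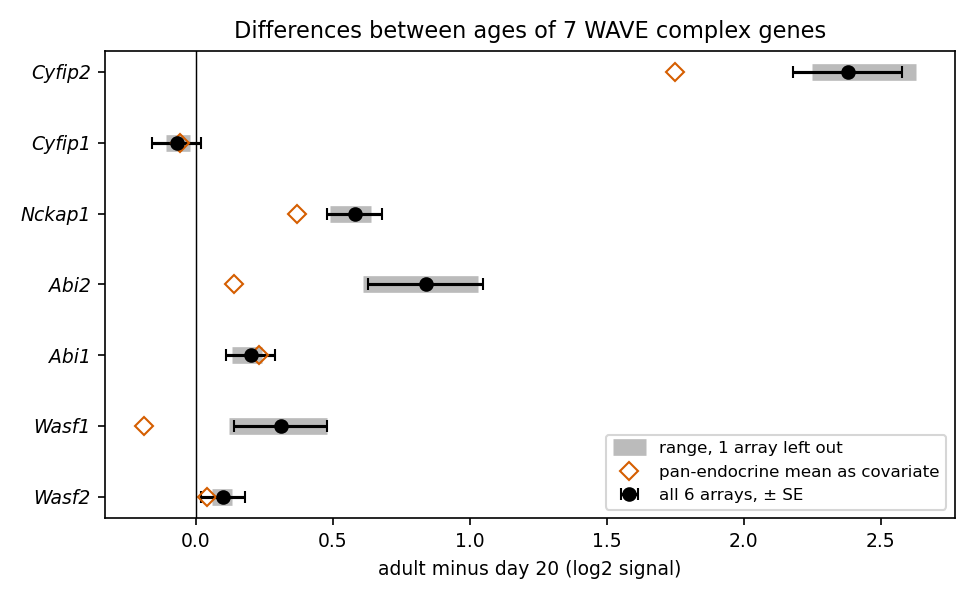
Adult minus day 20 difference in log2 signal (horizontal axis) of each WAVE complex gene: black points with bars are the fit to all 6 arrays ± SE, grey bars the range with 1 array left out, and open diamonds the fit with the pan-endocrine mean added as covariate. Cyfip2 stays furthest right under each of these, while the diamonds of Abi2 (0.14) and Wasf1 (-0.19) lie away from their black points.

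Of the 7 measured members, 3 passed an adjusted p of 0.05 in limma with Benjamini-Hochberg adjustment over all genes, namely Cyfip2, Nckap1 and Abi2, each higher in adult. Over all 14506 genes 22.7% passed, 11.8% higher and 10.9% lower in adult. The groups did not overlap for 4 members, against 39.6% of all genes. The members' median difference was 0.31, beside 0.01 over all genes. The list was built on this contrast, so nothing is read from these counts. Abi2 no longer passed without day 20 replicate 1 or without day 20 replicate 2, which left 2 members past the threshold in each case.

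The pan-endocrine mean moved with several members. Adult replicate 1 had its highest value (11.24) and also the highest signals of Cyfip2, Nckap1 and Abi2. Day 20 replicate 3 had its highest value of that age (10.40) and the highest day 20 signals of Cyfip2, Nckap1, Abi2, Wasf1 and Wasf2. With this mean as a covariate the difference of Cyfip2 was 1.75, that of Nckap1 0.37, that of Abi2 0.14 and that of Wasf1 -0.19. Those of Cyfip1, Wasf2 and Abi1 were -0.06, 0.04 and 0.23. With the covariate 1 member passed the threshold, Cyfip2, and 773 of all genes did. The 12 genes may themselves change within beta cells, so the mean is no pure measure of endocrine content, and its part in these differences was not tested. The mean was also higher on every adult array than on any day 20 array. The covariate thus overlaps with age, and the age difference is fitted less precisely. A call can then be lost while the difference stays the same or grows.

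Among 7399 genes with a mean of at least 7 at 1 of the ages, those whose 6 signals ran most like those of Cyfip2 were Glp1r, Vsnl1, Aass, Snap25 and Plcxd3. Likeness was the root mean square difference of log2 signals after each gene was centred on its mean of the 6 arrays, so it rests mostly on the size of the difference between the ages. The values were 0.18 for Glp1r, the GLP-1 receptor, 0.24 for Vsnl1, a neuronal calcium sensor, 0.24 for Aass, an enzyme of lysine breakdown, 0.25 for Snap25, a SNARE protein of exocytosis, and 0.32 for Plcxd3, of a family related to phospholipase C. The median over the 7399 genes was 1.21. Of the members of the complex, Abi2 was nearest at 0.79, and Nckap1 followed at 0.93.

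The 5 genes were not alike in how the pan-endocrine mean bore on them. Their log2 differences between the ages were 2.22 for Glp1r, 2.12 for Vsnl1, 2.11 for Aass, 2.08 for Snap25 and 1.83 for Plcxd3. With the covariate they were 1.20, 1.0, 1.84, 0.99 and 0.95 in the same order, beside 1.75 for Cyfip2. Aass and Cyfip2 thus kept a larger part of their difference than Glp1r, Vsnl1, Snap25 and Plcxd3 did. On day 20 replicate 3 the signals of Glp1r, Vsnl1, Snap25 and Plcxd3 lay further above those of the other day 20 arrays than that of Cyfip2 did.

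**Figure D3:**
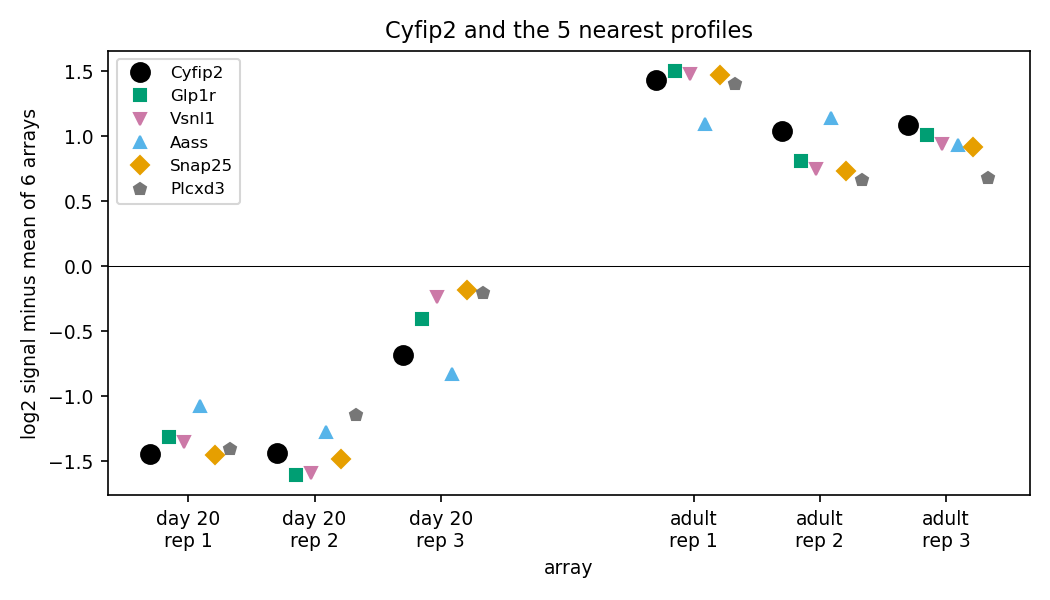
Log2 signal of Cyfip2 and the 5 genes with the nearest profiles, each minus its mean of the 6 arrays (vertical axis), on the 6 arrays (horizontal axis; points within an array are set apart sideways). All 6 genes are above their mean on the adult arrays and below it at day 20, and Aass is the one that stands beside Cyfip2 on day 20 replicate 3.

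The genes around the complex were taken next: 158 symbols in 9 lists, of which 121 were measured. They were tested in the same limma fit. In adult 16 were higher and 13 lower past the threshold, 24.0% of those measured against 22.7% of all genes, with a median difference of 0.02 beside 0.01. The share was close to that of all genes. Without adult replicate 1, adult replicate 3, day 20 replicate 1 and day 20 replicate 2 the count of 29 went to 19, 17, 17 and 14. With the endocrine covariate it was 7. A second quantile normalization kept the count at 29, but with 11 higher and 18 lower in adult. Over all genes it gave 1591 higher and 1729 lower.

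Upstream of the complex, Rac1, the GTPase that the Cyfip subunit binds, had signals of 10.94 ± 0.04 in adult and 10.80 ± 0.05 at day 20 (n = 3, limma adjusted p = 0.29). Of 21 measured Rac GTPases and activators, 3 rose and 3 fell with age. Rac2, the form of blood cells, had signals of 5.93, 6.17 and 6.14 in adult and of 6.62, 6.66 and 6.68 at day 20, and fell by 0.57 on the log2 scale (limma adjusted p = 0.00343). Prex2, an exchange factor of Rac, fell by 0.56, at signals of 5.37 and 5.93. Sos1, an exchange factor of Ras and Rac, and Elmo3, a partner of the Dock exchange factors, rose by 0.38 and 0.34 (limma adjusted p = 0.0465 and 0.0247). The call of Sos1 was lost without any array except adult replicate 2 (adjusted p up to 0.137), and that of Elmo3 without each of 4 arrays, adult replicates 2 and 3 and day 20 replicates 1 and 2 (up to 0.0899). With the covariate none of these 4 genes passed: the differences of Rac2, Prex2, Sos1 and Elmo3 were -0.47, -0.63, 0.11 and 0.34 (limma adjusted p = 0.127, 0.0989, 0.792 and 0.257). The difference of Elmo3 was the same as without the covariate, and that of Prex2 was larger in size.

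Of 10 measured Rac inhibitors, 1 rose and 2 fell. Racgap1, a GTPase-activating protein that works in cell division, had signals of 6.36, 6.37 and 6.39 in adult and of 7.52, 7.68 and 7.92 at day 20, and fell by 1.33 (limma adjusted p = 1.5e-04). The 7 markers of dividing cells had a mean per array of 6.02 to 6.06 in adult and 8.0 to 8.57 at day 20, and their part in the fall of Racgap1 was not tested. Over the leukocyte list the mean per array was 5.46 to 5.49 in adult and 5.51 to 5.69 at day 20, and its part in the fall of Rac2 was not tested. Chn1, a chimaerin that switches Rac off, rose by 0.72 (limma adjusted p = 0.0284), which did not hold on leaving out adult replicate 1, adult replicate 3, day 20 replicate 1 or day 20 replicate 2 (up to 0.0998). With the covariate the difference of Chn1 was 0.06 (limma adjusted p = 0.896), and that of Racgap1 was -1.45 (0.00271).

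Direct partners of the complex and its blood cell subunits gave 1 call among 16 measured genes. Cdk5r1, or p35, the activator of the kinase Cdk5, which phosphorylates WAVE proteins, had signals of 7.21, 6.77 and 6.89 in adult and of 6.25, 6.02 and 6.11 at day 20. It was 1.78-fold higher in adult (limma adjusted p = 0.00233) and passed with each array left out. With the covariate its difference went from 0.83 to 0.57, which did not pass (limma adjusted p = 0.111). Wasl (N-WASP), the related activator of Arp2/3 that answers to Cdc42, had a log2 difference of 0.35 that did not pass (limma adjusted p = 0.0664), though it did without day 20 replicate 3 (0.0221). Abi3, the remaining Abi protein, had a difference of -0.15 (limma adjusted p = 0.362).

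**Figure D4:**
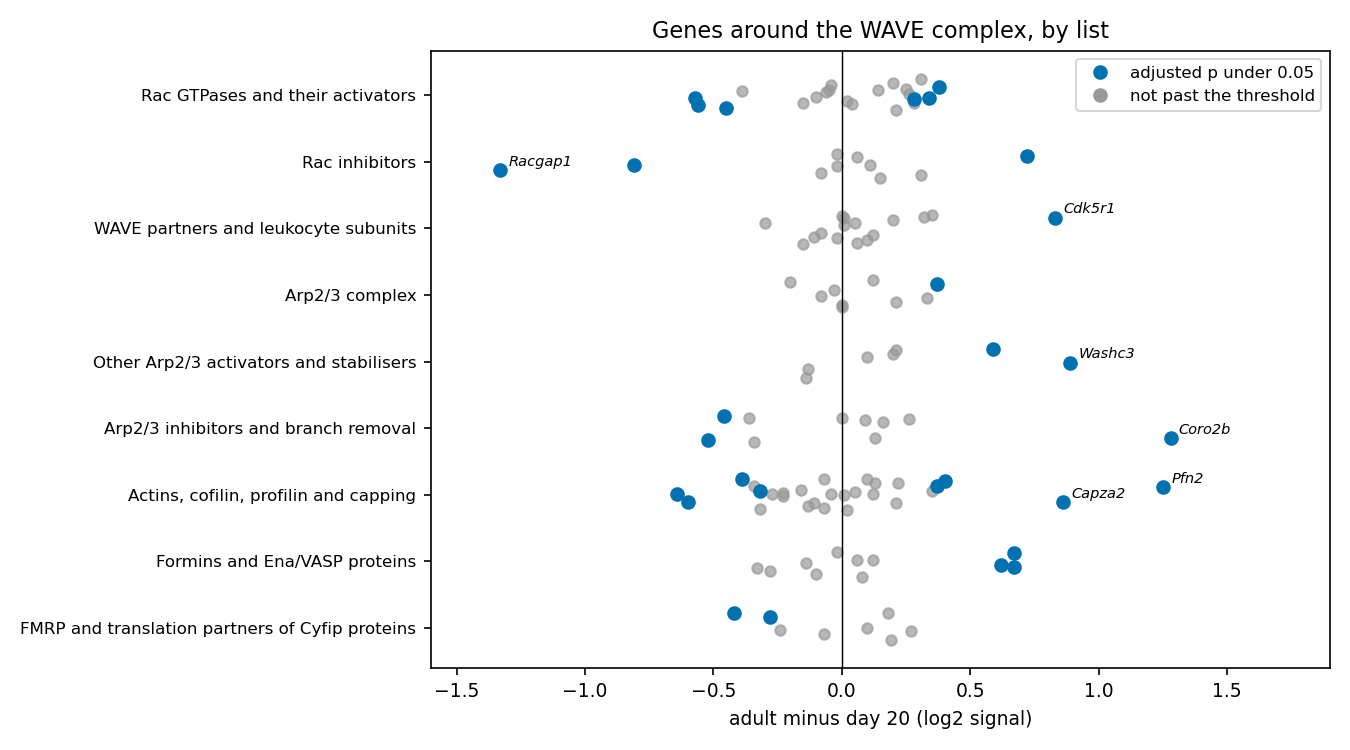
Adult minus day 20 difference in log2 signal (horizontal axis) of 121 genes around the WAVE complex in 9 lists (rows; points are set apart vertically at random), with genes past an adjusted p of 0.05 in blue and the rest in grey. Calls lie on both sides of 0, and among Arp2/3 complex genes 1 of 10 passed.

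Of 10 measured genes of the Arp2/3 complex itself, the target of the WAVE proteins, 1 passed, Actr2 (Arp2), which was 1.29-fold higher in adult (10.55 ± 0.15 against 10.19 ± 0.10, n = 3, limma adjusted p = 0.0348). The same 4 arrays as for Chn1, left out singly, ended this call (adjusted p up to 0.122), and with the covariate the difference was 0.12 (adjusted p = 0.734). Actr3 (Arp3) had a difference of 0.21 (limma adjusted p = 0.165). Arpc1b, named after its value was seen, had a difference of 0.37 that did not pass (limma adjusted p = 0.0514). At an unadjusted p under 0.05, 3 of the 10 genes were higher and 0 lower in adult in the same limma fit. Over all 14506 genes 2629 were higher and 2332 lower at that level, so nothing is read from this count. The median difference of the 10 genes was 0.06.

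Of 7 measured activators and stabilisers of Arp2/3 other than WAVE, 2 rose, Washc3 and Washc2c, both of the WASH complex, which acts on endosomes. Washc1, the subunit of that complex that activates Arp2/3, named after its value was seen, had a difference of 0.21 that did not pass (limma adjusted p = 0.277). Washc3 had signals of 8.45, 8.30 and 8.26 in adult and of 7.30, 7.66 and 7.37 at day 20, and was 1.85-fold higher in adult (limma adjusted p = 0.00113). Washc2c was 1.5-fold higher (limma adjusted p = 0.00406). Both passed with each array left out, and with the endocrine covariate their differences were 1.0 and 0.68 (limma adjusted p = 0.0189 and 0.0492).

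Of 10 measured genes that restrain Arp2/3 or take branches apart, 1 rose and 2 fell. Coro2b, a coronin, had signals of 9.21, 8.48 and 8.55 in adult and of 7.43, 6.99 and 7.97 at day 20, and was 2.43-fold higher in adult (limma adjusted p = 0.0084). With the covariate its difference went from 1.28 to 0.34 (adjusted p = 0.243). Gmfb, a glia maturation factor that removes branches, fell by 0.52, and Pick1, a PDZ protein that binds Arp2/3, fell by 0.46 (limma adjusted p = 0.00405 and 0.00993). With the covariate their differences were -0.59 and -0.29, and neither passed (0.0563 and 0.332).

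Among 28 measured actins, cofilins, profilins, capping proteins and their regulators, 4 rose and 4 fell. Pfn2, the profilin of neurons, had signals of 9.04, 8.31 and 8.18 in adult and of 7.04, 6.75 and 8.02 at day 20, and was 2.37-fold higher in adult (limma adjusted p = 0.0237). Adult replicate 3 and day 20 replicate 3 lay close together, and the call was lost without adult replicate 1, day 20 replicate 1 or day 20 replicate 2 (up to 0.0951). With the covariate the difference of Pfn2 went from 1.25 to 0.12 (limma adjusted p = 0.848). Capza2, a capping protein subunit, was 1.82-fold higher (limma adjusted p = 0.00276), and with the covariate its difference went from 0.86 to 0.68 (adjusted p = 0.109). Cfl1, the main cofilin, had signals of 10.02, 9.90 and 9.99 in adult and of 10.62, 10.47 and 10.60 at day 20, and fell by 0.60 (limma adjusted p = 0.00196), a call kept with the covariate (0.0216).

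Pak3, a kinase that answers to Rac, fell by 0.64 at signals near the first quartile, 4.61 and 5.25 (limma adjusted p = 0.0332). Its call was lost without any 1 of the adult arrays or day 20 replicate 2 (up to 0.0964), and without day 20 replicate 3 the difference was -0.41. With the covariate it was -1.02 (limma adjusted p = 0.0497). Actb, the cytoplasmic beta-actin, was among the brightest signals, 13.85 ± 0.03 in adult and 13.96 ± 0.09 at day 20 (n = 3, limma adjusted p = 0.437), a range where signals respond less than in proportion to RNA.

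Genes that act on unbranched filaments, among them formins, Spire and Ena/VASP genes, gave 3 rises among 11 measured, and the 2 largest are described. Daam1, a formin, and Spire1 were both 1.59-fold higher in adult (limma adjusted p = 0.0424 and 0.0377). The call of Daam1 was lost without any 1 of the day 20 arrays (up to 0.125), and that of Spire1 on leaving out adult replicate 1, adult replicate 3, day 20 replicate 1 or day 20 replicate 2 (up to 0.128). Without adult replicate 1 the differences went from 0.67 for both to 0.40 for Daam1 and 0.43 for Spire1. With the covariate they were 0.15 and 0.07 (limma adjusted p = 0.829 and 0.896).

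On the translation side of the Cyfip proteins, 2 of 8 measured genes fell. Eif4e, the cap-binding protein that Cyfip1 can hold, fell by 0.42 (limma adjusted p = 0.0236). Nufip1, a nuclear partner of FMRP, fell by 0.28 (limma adjusted p = 0.041). Leaving out adult replicate 2, adult replicate 3 or day 20 replicate 3 ended the call of Eif4e (up to 0.0818), and leaving out any 1 array that of Nufip1 (up to 0.126). With the covariate Eif4e passed, with a difference of -0.67 (limma adjusted p = 0.0375), and Nufip1 did not (-0.40, adjusted p = 0.144). Fmr1, which encodes FMRP, had a difference of 0.10 (limma adjusted p = 0.715), or of -0.06 without day 20 replicate 1.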

How the data were processed

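Total RNA of 6 beta cell-enriched preparations, 3 per age, was measured on whole-transcript arrays. The authors deposited log2 values, made with RMA, per the processing notes of the submitters; that method makes the arrays' distributions alike, which assumes that most genes do not differ. The log2 scale was taken from the range, 1.73 to 14.7. The software, annotation and genome build are not stated there. Of 29214 probe sets, 15310 had 1 gene symbol in the platform annotation, 323 had several and 13581 were not listed; symbols were updated through RefSeq (build GRCr8) by Entrez identifier for 15279. Where a gene had more than 1 probe set (527 genes) the brightest on average stood for it. Members were matched by symbol.

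The ages were compared by a two-sided moderated test (lmFit and eBayes of limma 3.58.1, R 4.3.3), adjusted by Benjamini-Hochberg over 14506 genes. The fit was tested on simulated data. P-values weigh the difference between the ages against the spread between these preparations, moderated over all genes. Members, lists and tests were chosen with earlier results of these data known, and the 12 pan-endocrine genes were first defined on these arrays. Genes were named by rule: in each list up to 2 rises and 2 falls, the largest past the threshold, 8 fixed genes and the 5 profiles nearest to Cyfip2, without provisional symbols. 1 gene that the naming rule picked is not reported here. All 9 members matched an entry of RefSeq's promoter table. Alternatives were 7 settings and each array left out. Tables and figures used Python 3.11.15, pandas 2.3.3, numpy 2.4.6 and matplotlib 3.10.9.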

Additional observations from a re-analysis of the deposited data

How the results depend on the processing

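The difference of Cyfip2 was 2.37 under median centring and 2.36 under a second quantile normalization, beside 2.38 in the main fit. Removal of the 33.3% of genes with the lowest signal, and eBayes with trend and robust variances, could not change this difference. Nor could the mean of probe sets, since Cyfip2 has 1, or the replicate block, since both ages hold the same replicate numbers. With the 12-gene pan-endocrine covariate the difference of Cyfip2 was 1.75, and 1 member passed the threshold in place of 3. Pathway genes past it numbered 7 in place of 29 (2 higher and 5 lower). All genes past it numbered 773 in place of 3294 (307 higher and 466 lower). This covariate is higher on every adult array than on any day 20 array, so calls can be lost where a difference stays the same. The part of this overlap in the lost calls was not tested. With 1 array left out, counts ranged from 2159 to 2925 for all genes (1065 to 1591 higher, 1076 to 1334 lower), from 14 to 27 for pathway genes (6 to 14 higher, 8 to 13 lower) and from 2 to 3 for members, and the difference of Cyfip2 from 2.25 to 2.63. Fewer arrays enter these fits. Of 21 pathway genes described and past the threshold, 11 passed with each array left out and 6 with the covariate. Wasl passed under 4 of the alternatives. Sos1, Elmo3 and Actr2 did not pass under a second quantile normalization or with the replicate block, and Nufip1 did not pass with the block.

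The labels do not say whether replicate numbers pair the arrays. Deviations of same-numbered arrays correlated at -0.19, 0.19 and -0.21, and 2 of 6 arrays correlated best with their own number. With 3 arrays per age these values cannot decide whether the numbers pair. With the replicate block 2609 genes passed (1384 higher and 1225 lower), 21 pathway genes and the same count of 3 members. The brightness of a probe set over background limits what can be said of Wasf1, Nckap1l, Prex2 and Pak3.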
